A study of Mus musculus with 12 samples.

Results

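Aminoacyl-tRNA synthetases attach each amino acid to its own tRNA and thereby supply the ribosome. Transcripts of 36 synthetase genes, 20 of the cytosolic and 16 of the mitochondrial enzymes, were followed in bone marrow-derived mesenchymal stromal cells (MSCs). The genes were chosen by a list of symbols, which were matched to the Ensembl identifiers of a table of 55487 genes, and all 36 were among the 11314 protein-coding genes that passed the filter on low counts. RNA was sequenced in 3 groups of 4 samples: untreated control MSCs, MSCs treated with 50 μM A1, and MSCs treated with 50 μM A1 plus 1 mg/mL ovalbumin (OVA), an egg white protein used as a model antigen. A1 is a variant of Accum, a bile acid joined to a peptide that carries a nuclear localization signal. Both treatments lasted 6 h, and the comparisons ask how the transcriptome of MSCs responds to A1 with and without an antigen. All groups were primary wild-type C57BL/6 cells, which the study obtained from female mice aged 6 to 8 weeks and grew in medium with serum and antibiotics. The label of the A1 + OVA medium also names insulin, with no amount, so that OVA and insulin cannot be told apart in that group. The sources used here do not say whether the 4 samples of a group were separate cultures or animals, so that p-values measure the spread between these samples, which may be technical.

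Most amino acids have a cytosolic synthetase and, from another nuclear gene, a mitochondrial enzyme whose symbol ends in 2. Gars and Kars are exceptions, since each encodes the cytosolic and the mitochondrial form, and mitochondria make glutaminyl-tRNA by converting charged glutamate with the GatCAB enzyme (Qrsl1, Gatb and Gatc) in place of a synthetase. Synthetases fall into class I and class II by the fold of their catalytic domain, and several cytosolic ones (Dars, Eprs, Iars, Kars, Lars, Mars1, Qars and Rars) are bound in the multisynthetase complex by the scaffolds Aimp1, Aimp2 and Eef1e1. When tRNAs stay uncharged, the kinase GCN2 phosphorylates eIF2α, the factor ATF4 is translated, and ATF4 activates many cytosolic synthetase genes through a short element known as the C/EBP-ATF response element (CARE).

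Each sample held between 13702348 and 16881995 counts. Levels are given as CPM, the counts of a gene scaled to library size after TMM normalization, and changes as log2 fold changes from edgeR's quasi-likelihood test with Benjamini-Hochberg adjustment over all tested genes, where an adjusted p-value under 0.05 was called. Of the stromal markers, Pdgfrb was at 370.0 to 413 CPM in control, whereas Nt5e was at 0.41 to 0.69 CPM and Thy1 reached 1.00 CPM at most and was not tested. Of the 9 stromal markers tested, Cd44 (1.39) and Itgb1 (0.62) rose with A1 on the log2 scale, whereas Pdgfra (−0.99), Ly6a (−0.59) and Col1a2 (−0.23) fell. With A1 + OVA the same 5 were called in the same directions and Pdgfrb fell as well (−0.14). The 6 leukocyte markers together summed to at most 3.02 CPM in any sample, and the 4 endothelial and 3 osteoblast markers to less. The 3 adipocyte markers summed to 2.95 to 5.01 CPM in control and to 1.38 to 1.95 CPM with A1 and 1.32 to 2.32 CPM with A1 + OVA, and the part of these markers in the changes below was not tested. In bulk RNA, fewer cells of a type and less RNA per cell cannot be told apart.

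The promoters are shown first because the CARE letters were found in 5 of the 13 cytosolic promoters available. Promoters of 300 bases, 250 before and 50 after the annotated start, were available for 27 members (RefSeq, GRCm38.p6). The letters TGATGNAA, read on both strands, occurred in 5 of 13 cytosolic promoters, those of Aars, Gars, Iars, Tars and Yars, and in 0 of 14 mitochondrial ones, compared with 2.57% of the 9032 promoters of tested genes and 4.51% of all 27025 promoters. The E-box letters CACGTG, which bind Myc and related factors, occurred in 4 cytosolic promoters (Aars, Farsb, Iars and Tars) and 1 mitochondrial promoter (Ears2), compared with 11.9% of tested genes and 8.09% of all promoters. At a share of 2.57%, few or no CARE matches would be expected among 14 promoters, so that their absence from the mitochondrial ones is not a contrast. A match is a description of these letters and was not tested for binding. No promoter was matched for Cars, Hars, Lars, Nars, Rars, Vars, Wars, Hars2 and Pars2. The 150 bases before the start are given 5′ to 3′ on the strand of the gene for the 3 members with a CARE match there, in lower case with matches to either motif in capitals. TTGCATCA is the CARE written on the opposite strand.
Aars, chr8:111033692-111033841, plus strand: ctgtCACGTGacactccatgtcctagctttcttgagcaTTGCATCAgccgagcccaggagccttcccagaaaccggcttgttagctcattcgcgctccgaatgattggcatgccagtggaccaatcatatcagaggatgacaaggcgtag
Gars, chr6:55037851-55038000, plus strand: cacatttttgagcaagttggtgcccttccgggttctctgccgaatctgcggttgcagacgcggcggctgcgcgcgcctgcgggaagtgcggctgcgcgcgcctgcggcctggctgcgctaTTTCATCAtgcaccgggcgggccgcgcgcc
Tars, chr15:11399659-11399808, minus strand: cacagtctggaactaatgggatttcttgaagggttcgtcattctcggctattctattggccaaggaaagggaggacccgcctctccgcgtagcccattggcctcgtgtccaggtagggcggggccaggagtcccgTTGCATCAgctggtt
The CARE match began 112 bases before the start of Aars, 30 bases before that of Gars and 15 bases before that of Tars. The matches of Iars and Yars, and another one of Aars, began 7, 3 and 9 bases after the start. In none of these promoters did the CARE and E-box letters overlap. Of the 5 genes with a CARE match, Gars, Iars, Tars and Yars rose with A1, with log2 fold changes of 0.24, 0.20, 0.35 and 0.18. Aars, with more than 1 match, changed by 0.06 and was not called (adjusted p = 0.124). Over all 20 cytosolic members, 15 rose (75%), compared with 31.7% of all tested genes. Among those with a promoter and no CARE match, Dars, Farsa, Farsb, Kars and Qars rose, whereas Eprs, Mars1 and Sars were not called. A link between the match and the change was not tested. Farsb, with an E-box and no CARE, rose by 0.34.

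Per kilobase of exon, cytosolic synthetase transcripts were the more abundant set. The length used merges all annotated exons of a gene and can exceed that of a transcript, which lowers the level per kilobase. It was 7237 bases for Cars2, 11089 for Lars2, 9282 for Aars and 2447 for Hars. Their longest coding transcripts have 1902, 3894, 5750 and 1989 bases, so that the order of genes depends on this choice of length. In control, their levels ran from 9.47 CPM per kb for Farsa, the catalytic subunit of phenylalanyl-tRNA synthetase, to 125 for Gars, with a median of 39.8. Gars was at 125 ± 2.95 CPM per kb and Nars at 109 ± 4.76 (mean ± SD, n = 4). The mitochondrial median was 2.90 CPM per kb, and 18 of 20 cytosolic members lay above every mitochondrial member other than Lars2. Lars2, the mitochondrial leucyl-tRNA synthetase, stood apart at 67.9 ± 16.7 CPM per kb, 4.49 times the next mitochondrial member, Iars2, at 15.1 ± 0.39. Pars2 was the lowest member at 1.14 ± 0.29. In the order of the 36 control means, 18 of the 35 neighbouring pairs overlapped in their control samples, and the other 17 did not.

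**Figure D1:**
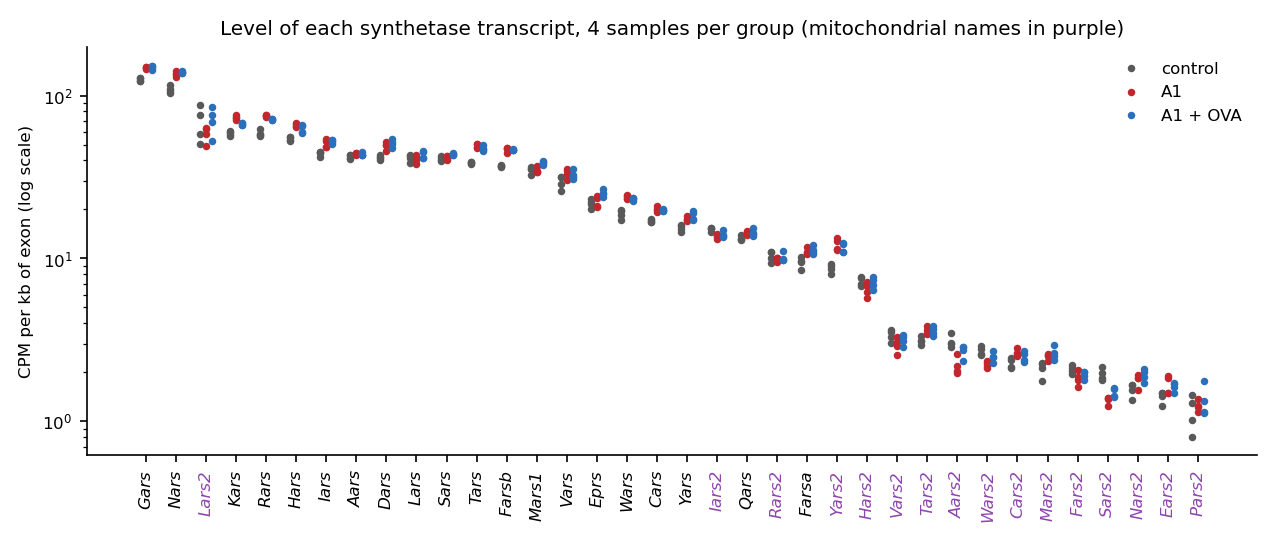
CPM per kilobase of exon (log scale) of the 36 synthetase transcripts, ordered by their control mean, with a point for each of the 4 samples of control (grey), A1 (red) and A1 + OVA (blue). Mitochondrial members are named in purple and lie at the right, apart from Lars2, which lies among the cytosolic members at 67.9 in control, and from Iars2, Rars2 and Yars2, which lie near Qars and Farsa.

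The level of Lars2 carries a limit. A stretch of 72 bases of its transcript is 98.6% identical to Gm15564, an antisense transcript of chromosome 16 with 2232 to 4508 counts per sample. Reads in that stretch could be split between them. Lars2 measured 969, 561, 838 and 643 CPM in control, 644, 698, 692 and 545 CPM with A1 and 765, 840.0, 944 and 583 CPM with A1 + OVA, so that the 3 groups overlapped. Gm15564 had 4508, 2912, 3586 and 2742 counts in the same control samples, and for both transcripts replicate 1 was the highest and replicate 3 the next. With A1 it had 2657, 2839, 2741 and 2232 counts, in the same order of samples as Lars2. With A1 + OVA it had 2866, 3636, 3943 and 2898 counts, and for both replicate 3 was the highest and replicate 2 the next. The part of Gm15564 in the level and spread of Lars2 was not tested. The control coefficient of variation of Lars2 was 24.6%, compared with a median of 5.34% for the other members. Its change with A1 was −0.22 ± 0.13 (adjusted p = 0.156), and it ran from −0.34 without control replicate 2 (adjusted p = 0.0291) to −0.078 without control replicate 1 (adjusted p = 0.612). Without a filter on low counts, the change of −0.23 was called as well (adjusted p = 0.0114). With Lars2 left out, the 15 other mitochondrial members summed to 369 to 379 CPM in control, 363 to 375 with A1 and 373 to 387 with A1 + OVA.

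Most cytosolic synthetase transcripts were higher with A1, by a small amount. Of the 20 members, 15 rose and 0 fell, compared with 31.7% of all tested genes that rose and 31.1% that fell. Their median log2 fold change was 0.23 (−0.03 to 0.36), compared with a median of −0.0017 over all tested genes, and none reached 0.5. Together the 20 genes summed to 4022 to 4145 CPM in control and to 4633 to 4776 CPM with A1, with no overlap between groups. The 5 members that did not pass were Aars, Eprs, Lars, Mars1 and Sars, with log2 fold changes from −0.03 (Lars) to 0.06 (Aars).

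**Figure D2:**
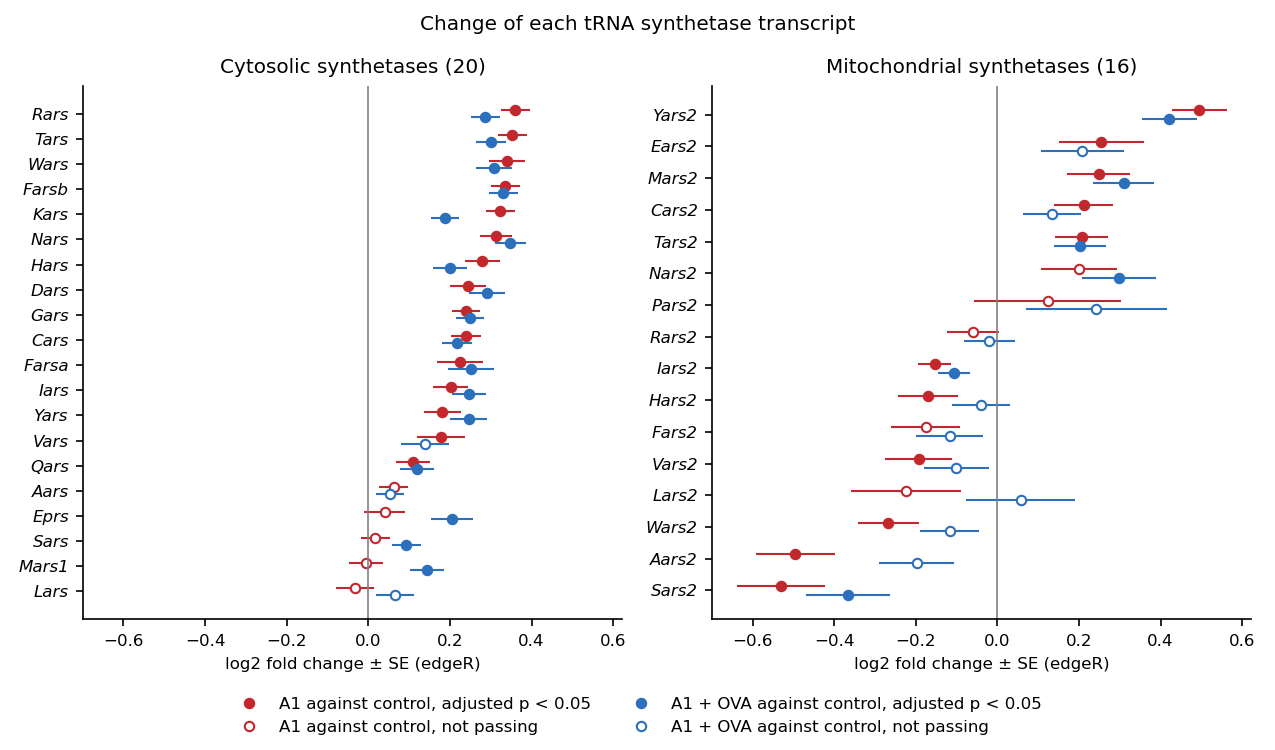
Log2 fold change with its standard error from edgeR for each of the 20 cytosolic (left) and 16 mitochondrial (right) synthetases, with A1 (red) and A1 + OVA (blue) against control. Filled points passed an adjusted p-value of 0.05. The filled points of the cytosolic enzymes all lie to the right of 0, whereas those of the mitochondrial enzymes lie on both sides, from Yars2 (0.49 with A1) to Sars2 (−0.53).

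Rars, the arginyl-tRNA synthetase of the complex, had the largest increase among the cytosolic members. It measured 184, 200.02, 188 and 182 CPM in control and 237, 244, 246 and 242 CPM with A1, and with A1 + OVA it measured 229, 231, 228 and 232 CPM. All 8 treated samples were above all control samples, with a log2 fold change of 0.36 ± 0.036 (SE, adjusted p = 1.63e-08) for A1, a factor of 1.28. Tars, which charges threonine and has a CARE match in its promoter, measured 225, 229.6, 227 and 229.9 CPM in control, 283, 285, 296 and 298 CPM with A1 and 294, 279, 279 and 271 CPM with A1 + OVA. Here too no treated sample overlapped with control, and the log2 fold change with A1 was 0.35 ± 0.036 (adjusted p = 2.25e-08). Wars, the tryptophanyl enzyme, measured 68.2, 59.8, 67.6 and 64.1 CPM in control, 84.0, 81.5, 80.0 and 83.1 CPM with A1 and 80.4, 78.0, 81.3 and 81.5 CPM with A1 + OVA. Its control and treated samples were apart as well, at 0.34 ± 0.044 (adjusted p = 9.46e-07). Farsb encodes the other subunit of the phenylalanyl enzyme, which works as a heterotetramer with Farsa. Farsb measured 97.4, 96.3, 95.8 and 98.9 CPM in control, 125, 117, 123 and 125 CPM with A1 and 121, 122, 124 and 121 CPM with A1 + OVA, a change of 0.34 ± 0.035 with A1 (adjusted p = 3.85e-08). Farsa rose by 0.22 ± 0.057 (adjusted p = 0.00186), so that both subunits were higher. Nars, the most abundant member after Gars per kilobase, measured 454, 503, 478 and 468 CPM in control, 566, 590.4, 620.4 and 588 CPM with A1 and 618, 606, 599 and 599.9 CPM with A1 + OVA, a change of 0.31 ± 0.039 (adjusted p = 4.10e-07).

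Gars and Kars supply the cytosol and the mitochondria from a shared gene, and both rose. Gars measured 401, 384, 383 and 397 CPM in control, 468, 452, 463 and 466 CPM with A1 and 477, 473, 463 and 447 CPM with A1 + OVA. The increase was 0.24 ± 0.035 with A1 and 0.25 ± 0.035 with A1 + OVA (adjusted p = 3.96e-06 and 2.81e-06), with no overlap with control. Kars measured 266, 253, 269 and 259.9 CPM in control, 338, 316, 332 and 324 CPM with A1 and 301, 301, 295 and 296 CPM with A1 + OVA. All A1 samples were above all A1 + OVA samples, and these were above all control samples, so that Kars rose by 0.32 with A1 and by 0.19 with A1 + OVA. Counts per gene do not separate the 2 forms.

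The other called cytosolic members rose by between 0.11 (Qars) and 0.28 (Hars) with A1, among them Dars (0.24), Cars (0.24), Iars (0.20), Yars (0.18) and Vars (0.18). Part of the Iars transcript, 1656 bases, is 96.0% identical to the pseudogene Gm4849, which had only 2 to 11 counts per sample. The 8 enzymes of the multisynthetase complex were mixed with A1. Dars, Iars, Kars, Qars and Rars rose, whereas Eprs, Lars and Mars1 were within −0.03 to 0.04 and did not pass. Of the 12 cytosolic enzymes outside the complex, 10 rose (83.3%), compared with 31.7% of all tested genes. By catalytic class, 7 of 9 class I (77.8%) and 8 of 10 class II members (80%) rose. The class medians were 0.18 and 0.26, and the difference between the classes was not tested. Eprs, which has a catalytic domain of each class, was counted in neither. Without normalization beyond library size, which shifted the median of all genes by −0.08, the median of the cytosolic members was 0.15, Qars, Vars and Yars were no longer called, and Lars was called lower at −0.11. The Qars call was lost in 7 of 19 alternatives in all, among them a test without the low-count filter, upper-quartile normalization and the omission of control replicate 2 or 3 or A1 replicate 1 or 4, and the Vars call was also lost without control replicate 2 or A1 replicate 4.

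The 3 scaffolds of the complex rose with A1, compared with 31.7% of all tested genes. Aimp2 was at 40.2 to 51.0 CPM in control and at 67.4 to 72.8 CPM with A1, an increase of 0.65 ± 0.058 (adjusted p = 2.97e-09). Eef1e1 was at 37.6 to 42.5 CPM in control and 54.0 to 64.0 CPM with A1, an increase of 0.54 ± 0.069 (adjusted p = 6.49e-07). Neither overlapped with control, and both were above the largest change of any cytosolic enzyme. Aimp1 rose by only 0.19 ± 0.048 (adjusted p = 0.00197), and by 0.11 without an adjusted p-value under 0.05 when only library size was used. With A1 + OVA, the changes were 0.50 for Aimp2, 0.61 for Eef1e1 and 0.12 for Aimp1. The Aimp1 call with A1 + OVA (adjusted p = 0.0355) was lost in 14 of 19 alternatives, DESeq2 and upper-quartile normalization among them.

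**Figure D3:**
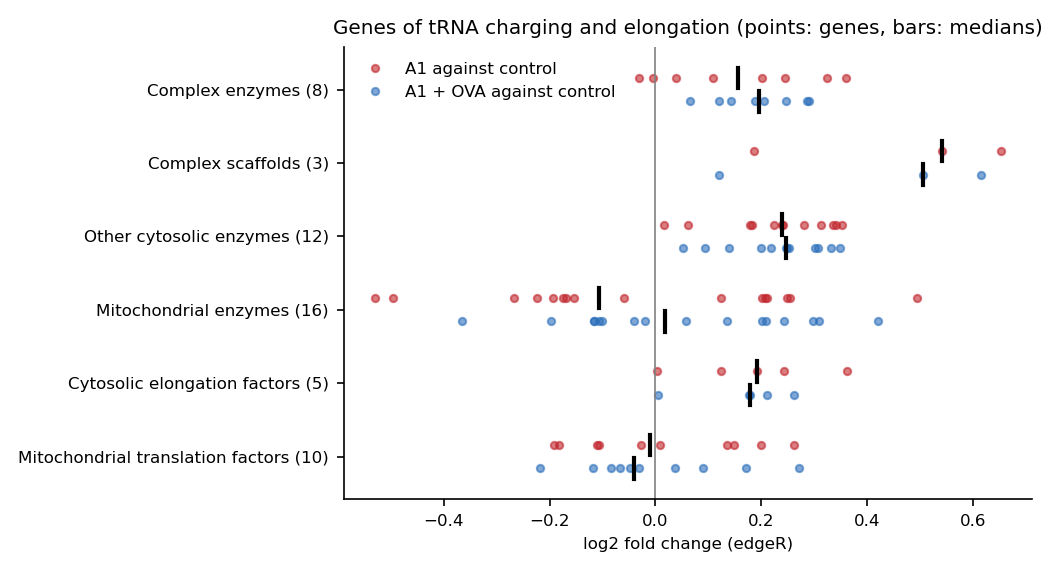
Log2 fold change of single genes (points) and the median of each group (black bars) for A1 (red) and A1 + OVA (blue) against control, for groups of genes of tRNA charging and elongation. The scaffolds Aimp2 and Eef1e1 lie at 0.5 and above, the cytosolic enzymes and elongation factors mostly between 0 and 0.36, and the mitochondrial enzymes and factors on both sides of 0.

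Mitochondrial synthetase transcripts moved in both directions with A1, in shares near those of all tested genes. Of the 16 members, Cars2, Ears2, Mars2, Tars2 and Yars2 rose (5), and Aars2, Hars2, Iars2, Sars2, Vars2 and Wars2 fell (6), which are 31.25% and 37.5% of the members, compared with the 31.7% and 31.1% of all tested genes. Fars2, Lars2, Nars2, Pars2 and Rars2 were not called, with changes from −0.22 (Lars2) to 0.20 (Nars2). The median log2 fold change was −0.11, and −0.06 with Lars2 left out, an alternative added after the data were seen. Sars2 was the only member of either set whose log2 fold change was 0.5 or more in size in any comparison. Before rounding, Aars2 was just short of this with A1. Over the alternatives, Aars2 ran from −0.58 to −0.43 with A1 and Yars2 from 0.41 to 0.53.

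Sars2, the mitochondrial seryl enzyme, fell the most. It measured 7.18, 5.91, 6.13 and 6.58 CPM in control, 4.12, 4.58, 4.58 and 4.57 CPM with A1 and 4.71, 5.32, 4.69 and 5.24 CPM with A1 + OVA. The groups stood in the order control, A1 + OVA and A1 with no overlap, at 57 to 116 counts per sample. The difference of Sars2 between A1 + OVA and A1 was not called. Its changes against control were −0.53 ± 0.11 with A1 (SE, adjusted p = 2.37e-04) and −0.37 ± 0.10 with A1 + OVA (adjusted p = 0.00455). Its cytosolic counterpart Sars changed by 0.02 and was not called. Aars2, the mitochondrial alanyl enzyme, measured 14.2, 13.6, 14.5 and 16.7 CPM in control, 9.69, 12.4, 9.39 and 10.4 CPM with A1 and 13.0, 11.1, 13.6 and 13.7 CPM with A1 + OVA. With A1 all samples were below control, at −0.50 ± 0.097 (adjusted p = 1.41e-04), whereas with A1 + OVA the samples overlapped with control and the change of −0.20 was not called (adjusted p = 0.0689). Wars2 measured 15.3, 15.1, 16.5 and 17.2 CPM in control, 12.7, 13.6, 14.05 and 13.1 CPM with A1 and 14.9, 14.8, 13.5 and 15.96 CPM with A1 + OVA, so that it was lower in all A1 samples (−0.27 ± 0.075, adjusted p = 0.00376) and overlapped with control in the A1 + OVA samples. Iars2, the most abundant member of this set after Lars2, measured 129 to 137 CPM in control and 117 to 125 CPM with A1, a change of −0.15 ± 0.039 (adjusted p = 0.0019). Hars2 and Vars2 passed narrowly (adjusted p = 0.0485 and 0.0466), overlapped with control, and were not called in several alternatives, DESeq2 among them.

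Yars2, the mitochondrial tyrosyl enzyme, rose more than any cytosolic member. It measured 29.1, 25.2, 27.2 and 28.2 CPM in control, 36.2, 35.7, 40.2 and 42.3 CPM with A1 and 34.6, 38.5, 34.3 and 39.3 CPM with A1 + OVA. All treated samples were above all control samples, at 0.49 ± 0.068 with A1 (adjusted p = 1.75e-06) and 0.42 ± 0.067 with A1 + OVA (adjusted p = 1.49e-05). Mars2 measured 20.1, 25.7, 24.1 and 25.5 CPM in control, 26.6, 29.4, 28.5 and 28.97 CPM with A1 and 26.8, 28.6, 33.1 and 29.8 CPM with A1 + OVA. Its lowest control sample, replicate 1, was well below the other 3, and no treated sample overlapped with control (0.25 ± 0.077 with A1, adjusted p = 0.008). Tars2 measured 21.5, 21.5, 23.3 and 20.4 CPM in control, 23.9, 25.2, 24.2 and 26.7 CPM with A1 and 23.2, 23.997, 25.6 and 26.8 CPM with A1 + OVA, with a change of 0.21 ± 0.065 (adjusted p = 0.00864). Cars2 measured 15.4, 17.8, 15.6 and 17.2 CPM in control, 20.4, 18.3, 18.7 and 19.03 CPM with A1 and 16.8, 17.2, 19.5 and 18.9 CPM with A1 + OVA. The change of Cars2 with A1 was 0.21 ± 0.072 (adjusted p = 0.0152). The A1 samples of Tars2 and Cars2 did not overlap with control, whereas their A1 + OVA samples did. Ears2, the glutamyl enzyme, measured 7.67, 6.44, 7.73 and 7.34 CPM in control, 9.55, 9.85, 7.71 and 7.70 CPM with A1 and 7.68, 8.86, 8.71 and 8.38 CPM with A1 + OVA. A1 replicates 1 and 2 were high and replicates 3 and 4 lay within the control range, so that the call (0.25 ± 0.10, adjusted p = 0.0381) was lost when either of the high samples was left out, with DESeq2 and in other alternatives. Cars2 was not called either without control replicate 3 or A1 replicate 1, the latter of which left 3 members higher. Without normalization beyond library size, only Yars2 of these 5 was still called.

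**Figure D4:**
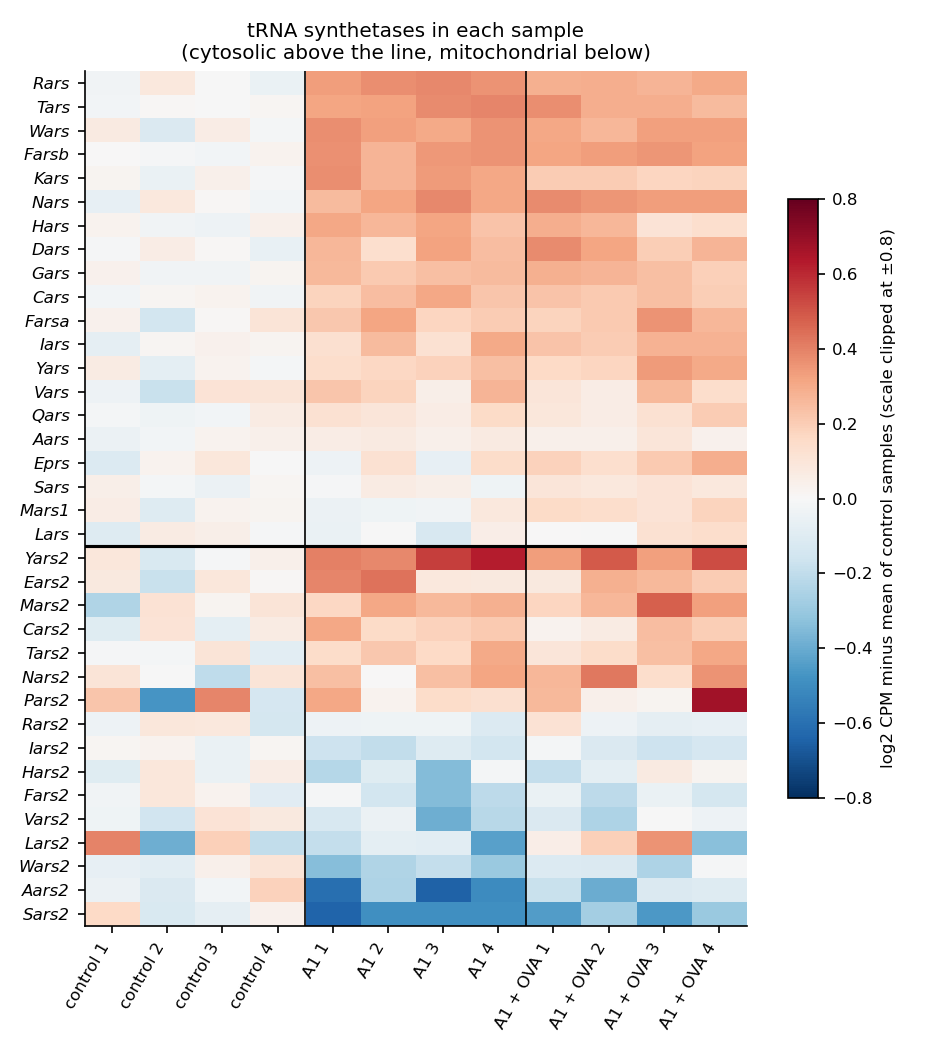
Log2 CPM of each of the 36 synthetases (rows) in each of the 12 samples (columns) minus the mean of the control samples, on a colour scale clipped at ±0.8. Above the line, the cytosolic rows are red in nearly all treated columns down to Qars, and below it the mitochondrial rows run from Yars2, red in all treated columns, to Sars2, blue in all of them, with uneven control columns for Lars2 and Pars2.

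In the A1 + OVA samples, 17 cytosolic members rose and 0 fell against control, compared with 29.7% and 27.9% of all tested genes. The median was 0.23 (0.05 to 0.35), and the sum of the 20 genes was 4699 to 4772 CPM. Aars, Lars and Vars were not called, with changes of 0.05, 0.07 and 0.14. Sars was called narrowly (0.09, adjusted p = 0.0294) and the call was lost in 12 of 19 alternatives. Nars (0.35) and Farsb (0.33) had the largest increases, and 7 of the 8 complex enzymes were called, all but Lars. Of the mitochondrial members, Mars2, Nars2, Tars2 and Yars2 rose (4) and Iars2 and Sars2 fell (2). These are 25% and 12.5% of the members, below the shares of all tested genes. The median of the mitochondrial members was 0.02, and −0.05 without normalization beyond library size. Nars2, the asparaginyl enzyme, measured 11.6, 10.8, 9.41 and 11.7 CPM in control and 13.0, 14.5, 11.9 and 13.9 CPM with A1 + OVA, an increase of 0.30 ± 0.090 (adjusted p = 0.0074). The call of Iars2 (−0.11, adjusted p = 0.0234) was lost without control replicate 2 or 4 or A1-OVA replicate 2, 3 or 4, which left 1 member lower. Both comparisons use the same control samples.

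Tested directly against A1, the A1 + OVA samples had 2 cytosolic members higher and 1 lower, compared with 6.05% and 6.81% of all tested genes. Eprs, which charges glutamate and proline from a fused protein, measured 365, 401, 419 and 392.1 CPM in control, 382, 428, 376 and 435 CPM with A1 and 447, 432, 455 and 482 CPM with A1 + OVA. A1 replicates 1 and 3 were low, and the difference of 0.17 ± 0.051 (adjusted p = 0.0372) did not pass without either of them, nor without A1-OVA replicate 3 or 4. Mars1, the cytosolic methionyl enzyme, measured 125, 111, 122 and 121 CPM in control, 116, 117, 117 and 127 CPM with A1 and 133, 132, 129 and 135 CPM with A1 + OVA. Every A1 + OVA sample was above every A1 sample, by 0.15 ± 0.042 (adjusted p = 0.0223), and this call was lost without A1 replicate 1, 2 or 3 or A1-OVA replicate 4, with adjusted p-values of up to 0.0789. The difference for Kars was −0.14 ± 0.035 (adjusted p = 0.0133), and it was called in all alternatives. Of the mitochondrial members, 0 were called by edgeR, 0 by DESeq2, and 1, Aars2, had an unadjusted p-value under 0.05 (0.30, adjusted p = 0.0526).

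The ratio of each cytosolic transcript to its mitochondrial counterpart was taken within each library, where the scaling between libraries cancels. Of 17 pairs, 13 had a higher ratio with A1 and 4 a lower one, with a median difference of 0.35 on the log2 scale. Wars/Wars2 had the largest difference, from 1.89 to 2.14 in control to 2.50 to 2.72 with A1, a difference of 0.61. Aars/Aars2 (0.56), Sars/Sars2 (0.53) and Farsb/Fars2 (0.51) followed. In 9 pairs all A1 samples were above all control samples, and in Yars/Yars2 all were below (−0.31). These 10 pairs had p = 0.0286 in an exact two-sided permutation test, the smallest that 4 samples against 4 allow, and after adjustment over the 34 tests it was 0.0540, so that no pair passed. In Sars/Sars2 and Aars/Aars2 the mitochondrial gene was called lower and the cytosolic gene was not called, whereas in Rars/Rars2 (0.42) and Farsb/Fars2 the cytosolic gene was called higher and the mitochondrial gene was not called. With A1 + OVA, the median difference was 0.24, the ratio was higher in 13 pairs and lower in 4, and 8 were above control in all samples. How often other pairs of genes separate in this way was not tested, and Eprs and Fars2 recur among the 17 pairs. For single genes, 31.7% of all tested genes rose and 31.1% fell with A1.

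**Figure D5:**
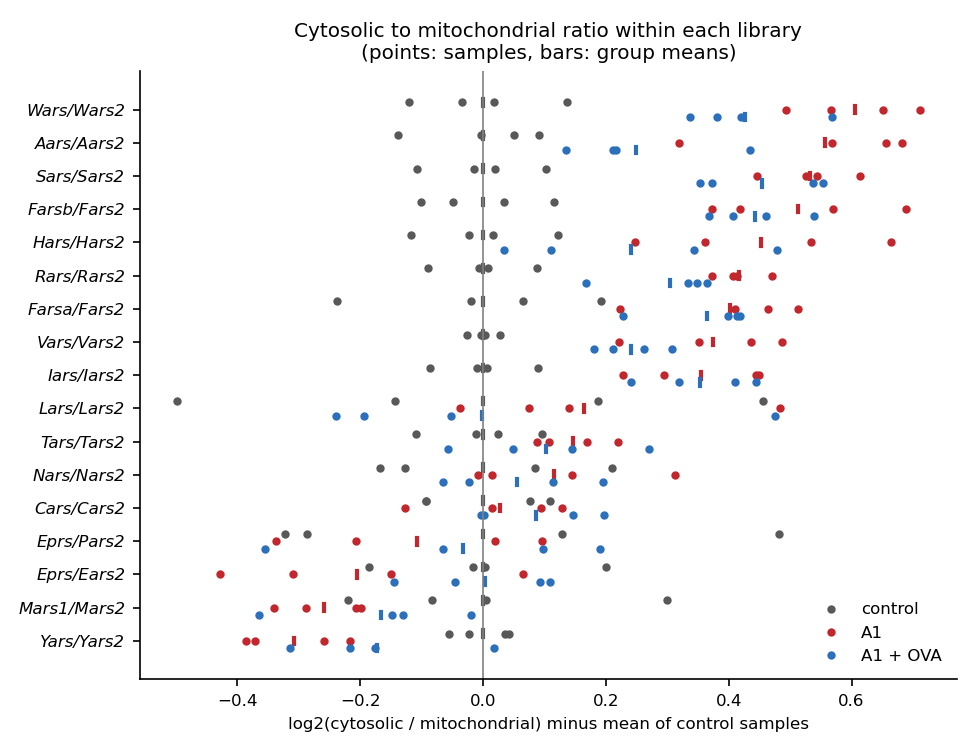
Log2 ratio of the cytosolic to the mitochondrial transcript in each sample, minus the mean of the control samples, for 17 pairs ordered by the A1 difference. Points are samples and bars are group means. From Wars/Wars2 down to Iars/Iars2 the red A1 points lie to the right of all grey control points, whereas for Yars/Yars2 they lie to the left.

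Other genes of tRNA handling were counted from lists. Of 18 accessory genes of tRNA charging, 17 were tested, 7 rose and 6 fell with A1, which are 41.2% and 35.3% of those tested, compared with 31.7% and 31.1% of all tested genes. Trnt1, which adds the CCA end to tRNAs, rose by 0.47, and Xpot, which exports tRNAs from the nucleus, by 0.28. The 3 genes of the GatCAB enzyme were called lower. Gatb was at 46.8 to 54.4 CPM in control and 15.7 to 17.3 CPM with A1, a change of −1.59 ± 0.067 (adjusted p = 1.21e-14), larger than that of any synthetase, while Gatc fell by 0.21 and Qrsl1 by 0.21. The Qrsl1 call was lost without control replicate 1, 2 or 4 or A1 replicate 1, 2 or 3 (adjusted p = 0.0544 to 0.109). With A1 + OVA the changes were −1.45 for Gatb and −0.20 for Gatc, whereas Qrsl1, at 0.03, was not called. Of 5 cytosolic elongation factor genes 4 rose with either treatment (80%), compared with 31.7% of all tested genes with A1 and 29.7% with A1 + OVA. Of 10 mitochondrial translation factor genes 3 rose and 2 fell with A1, which is 30% and 20% and no more than the share of all tested genes.

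Of 14 genes of the amino acid stress response, 5 rose and 2 fell with A1, and 7 rose and 3 fell with A1 + OVA. With A1 these are 35.7% and 14.3%, compared with 31.7% and 31.1% of all tested genes, and with A1 + OVA 50% and 21.4%, compared with 29.7% and 27.9%. Atf4 was at 288 to 307 CPM in control and 386 to 405 CPM with A1, an increase of 0.40 ± 0.035 (adjusted p = 1.97e-09), which is a change of its transcript and not of its translation. Chac1, a glutathione-degrading ATF4 target, rose by 1.40, from 7.09 to 8.54 CPM to 19.2 to 21.4 CPM. Asns and Psat1, enzymes of asparagine and serine synthesis, rose by 0.19 and 0.34 with A1 and by 0.28 and 0.25 with A1 + OVA. The changes of Asns and Psat1 were in the range of the called cytosolic synthetases. Phgdh, an enzyme of serine synthesis, was the other gene called higher with A1 (0.09, adjusted p = 0.0424), and its call was lost in 12 of 19 alternatives. Cebpg, a partner of ATF4, and Eif2ak2, the double-stranded RNA kinase PKR, fell with A1 by 0.16 and 0.30. The 7 genes not called with A1 ran from −0.17 (Ddit3, which encodes CHOP) to 0.08 (Sesn2), with Trib3, another ATF4 target, at −0.02 and Eif2ak4, which encodes GCN2, at 0.01. Ddit3 was called lower in 7 of 19 alternatives. With A1 + OVA, Trib3 (0.32) and Eif2ak4 (0.14) were called higher and Eif2ak1, the heme-regulated kinase, lower (−0.21), and the Eif2ak4 call was lost with library size only and without control replicate 1 or A1-OVA replicate 3.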

How the data were processed

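RNA of 12 samples, 4 in each of 3 groups taken from the sample titles, was sequenced from strand-specific poly(A) libraries. The authors mapped the reads with STAR 2.7 (GRCm38) and used the strand-specific mode of featureCounts 2.0. The deposited values are raw counts with no normalization or filter, per the file headers and values. Gene names, coordinates and exon lengths came from GENCODE M21, an earlier annotation that holds 99.5% of the identifiers. Between 13702348 and 16881995 counts were present per sample, and 3 counts were taken as the smallest signal.

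Protein-coding genes were kept with filterByExpr, normalized by TMM and tested with the quasi-likelihood test of edgeR 4.0.16 in R 4.3.3, in 1 fit of all 12 samples with group as the only term and Benjamini-Hochberg adjustment over 11314 genes. This test was checked on simulated counts. Levels are CPM, divided by the merged length of all annotated exons only between genes. Pair ratios used log2 CPM with a prior count of 2 and an exact permutation test (scipy 1.17.1). Near-identical transcripts of at least 70 bases and 95% identity were found with blastn 2.17.0. Hars and Hars2 overlap on opposite strands, which strand-specific counting separates. Iars2 likewise shares 2034 bases with Rab3gap2, a gene on the opposite strand with 1559 to 2117 counts per sample. Cars2, Ears2 and Fars2 share shorter stretches with the opposite-strand genes Naxd, Ubfd1 and Lyrm4. Within the bounds of 8 members, introns included, 12 other genes lay on the same strand, and none had more than 10 counts in any sample. Exosc6 is among them and shares 1326 bases with the end of the Aars transcript. Reads there may have been assigned to neither gene, so that the 0 counts of Exosc6 do not show whether it was transcribed. The effect on the Aars count was not tested.

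Values in every sample were given for the 6 called members of each set with the largest change with A1, for called members opposite to most of their set, for members called between A1 + OVA and A1, and for Gars and Kars. Lars2 and Nars2 were added after their values were seen. The members and gene lists were chosen with earlier results of these data known. Alternatives were DESeq2 1.42.0, upper-quartile normalization, library size only, no filter on low counts, a fit of only the groups compared, all genes of the file, the replicate number as a block, a prior count of 0.5, a log2 fold change of 0.5 or more in size, and each sample left out. Leaving out Lars2 was added after the data were seen. Between replicates the counts differed by 1.92 to 6.87 times the counting variance, so that no pair of replicates was within counting noise.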

Additional observations from a re-analysis of the deposited data

Results flagged for a closer look

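In 7 of the 108 groups of 4 samples of the 36 members, 1 sample stood apart from the other 3 by Dixon's criterion, where chance gives about 1 in 20. Sars2 was at 4.12 CPM in A1 replicate 1, below the narrow range of 4.57 to 4.58 CPM in the other A1 samples. Aars was at 419 CPM in A1-OVA replicate 3, with the others at 400.0 to 402 CPM. Iars was at 222 CPM in control replicate 1, with the others at 236 to 238 CPM, and Iars2 at 129 CPM in control replicate 3, with the others at 136 to 137 CPM. Mars1 was at 127 CPM in A1 replicate 4, with the others at 116 to 117 CPM. Rars2 was at 26.4 CPM in A1 replicate 4 and at 30.9 CPM in A1-OVA replicate 1, in groups whose other samples lay between 27.7 and 27.9 CPM and between 27.1 and 27.7 CPM. A1 replicate 4 stood apart in 2 of these groups and no other sample in more than 1. Their causes were not tested.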

How the results depend on the processing

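Of the called cytosolic members, 12 of 15 with A1 and 14 of 17 with A1 + OVA were called in the same direction in all 19 alternatives, as were 1 of 5 higher and 4 of 6 lower mitochondrial members with A1 and 3 of 4 and 1 of 2 with A1 + OVA. Between A1 + OVA and A1 only Kars was. When a log2 fold change of 0.5 or more in size was also required, 0 cytosolic members were left in any comparison, 0 mitochondrial members were higher with either treatment, and 1 was lower with A1 and 0 with A1 + OVA. With library size only, which shifted all genes by −0.08 with A1 and −0.07 with A1 + OVA, 1 cytosolic member was lower with A1, 1 mitochondrial member was higher with A1, 4 were lower with A1 + OVA and 1 was higher than with A1. The medians were then 0.15 and 0.17 for the cytosolic members and −0.19 and −0.048 for the mitochondrial members with A1 and A1 + OVA, and 0.024 for the cytosolic members between the treatments. Upper-quartile normalization gave medians of 0.20 and 0.21 (cytosolic) and −0.14 (mitochondrial, A1), and 1 mitochondrial member higher with A1 + OVA than with A1. That count was 2 without a filter on low counts. With all genes of the file, 1 cytosolic member was higher in A1 + OVA than in A1. Without Lars2, added after the data were seen, the mitochondrial medians were −0.059 and −0.020.

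With samples left out in turn, the A1 counts were 13 to 15 (cytosolic, higher), 3 to 6 (mitochondrial, higher) and 4 to 6 (mitochondrial, lower), with medians of 0.22 to 0.23 and −0.13 to −0.075. For A1 + OVA they were 16 to 18, 4 and 1 to 2, with medians of 0.22 to 0.24 and −0.022 to 0.058. Between the treatments, 0 to 2 cytosolic and 0 to 1 mitochondrial members were higher.

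Directions that turned belonged to members that were not called. With library size only, Aars was at −0.019 with A1 and −0.014 with A1 + OVA, Eprs at −0.041 and Sars at −0.064 with A1, and Lars2 at −0.0097 and Qrsl1 at −0.038 with A1 + OVA. Sars was at −0.012 with upper-quartile normalization, and the Eprs/Ears2 ratio at −0.00017 with a prior count of 0.5. Left-out samples gave ranges with A1 of −0.0024 to 0.070 for Eprs, −0.043 to 0.015 for Mars1 and −0.018 to 0.26 for Pars2, and with A1 + OVA of −0.078 to 0.0051 for Hars2, −0.061 to 0.20 for Lars2, −0.064 to 0.012 for Rars2 and −0.026 to 0.096 for Qrsl1. Of the stress response genes, Eif2ak4 was at −0.020 with upper-quartile normalization and −0.072 with library size only, and −0.015 to 0.037 with samples left out (A1), Trib3 ran from −0.093 to 0.020 with samples left out (A1), and Sesn2 was at −0.0071 with library size only (A1 + OVA). The causes were not tested.

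No clear pairing of the samples by replicate number was seen, but this check cannot exclude a shared donor, culture or day. Deviations of same-numbered samples had a mean correlation of 0.021 over 12 pairs, compared with −0.007 over 36 others, and 5 of 12 samples correlated best with their own number. With the replicate block, 15 and 18 cytosolic members were higher with A1 and A1 + OVA, and 4 mitochondrial members were higher and 5 lower with A1. Ears2 and Vars2 were then not called with A1, and Vars was called with A1 + OVA. Mitochondrial members at a few CPM, such as Pars2, have wide intervals at this depth, and 4 samples per group limit the pair ratios.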
